A study of Mus musculus with 6 samples.

Results

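The DNA replication machinery was read out here from 38 genes in immortalized mouse embryonic fibroblasts (MEF) that were wild type (WT) or lacked either TIA1 or TIAR, a pair of related RNA-binding proteins that act on splicing and translation. The probes were taken by gene symbol: every non-control probe whose gene name was one of the 38 was taken, and all 38 genes were found, on 48 of the 55681 probes of the array. Total RNA was labelled with Cy3 and hybridized to 6 single-colour Agilent mouse arrays, 2 independent samples for each of WT, TIA1 KO and TIAR KO cells, without any treatment. The labels give the strain background as W4 for WT, BALB/c for TIA1 KO and C57BL/6 for TIAR KO, so that the missing gene cannot be told apart from strain or line in any comparison. The cells are immortalized lines maintained in culture, and with 2 samples a group the p-values measure only the spread between those samples. Tia1 encodes TIA1 and Tial1 encodes TIAR.

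Before S phase, the origin recognition complex, Cdc6 and Cdt1 load the ring of Mcm2 to Mcm7 onto DNA, and geminin (Gmnn) holds Cdt1 back from loading it again. Cdc45 and the GINS complex then turn the ring into the active helicase, RPA coats the single strands, polymerase alpha with its primase lays down primers, the RFC complex loads the PCNA clamp, and polymerases delta and epsilon extend both strands. Fen1 and Lig1 finish the Okazaki fragments, while ribonucleotide reductase (Rrm1, Rrm2) and thymidylate synthase (Tyms) supply precursors. In dividing fibroblasts most of these genes are transcribed around the entry into S phase under E2F transcription factors.

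All 38 genes were well measured in most arrays. Values are log2 intensities after background correction and normalization between arrays, each gene is read from its brightest probe, and intensities are compared between arrays for a gene and never between genes. The scanner software rated the probe well above background for 38 of 38 genes on both WT and both TIAR KO arrays, on 35 in TIA1 KO replicate 1 and on 38 in TIA1 KO replicate 2, and no spot of these probes was saturated. The TIA1 KO arrays had fewer probes well above background, 16000 and 19920, against 23531 and 26254 in WT and 24754 and 25985 in TIAR KO, and the highest median raw intensity over all probes, 458 and 218, against 152 and 140 in WT and 136 and 119 in TIAR KO. All arrays were on 1 slide, with both TIA1 KO arrays in a row of their own, and an effect of that row cannot be told apart from the knockout. Before normalization, the median raw intensity of the 38 probes was 23900 and 24200 in WT, 13200 and 13400 in TIA1 KO, and 14600 and 9740 in TIAR KO.

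**Figure D1:**
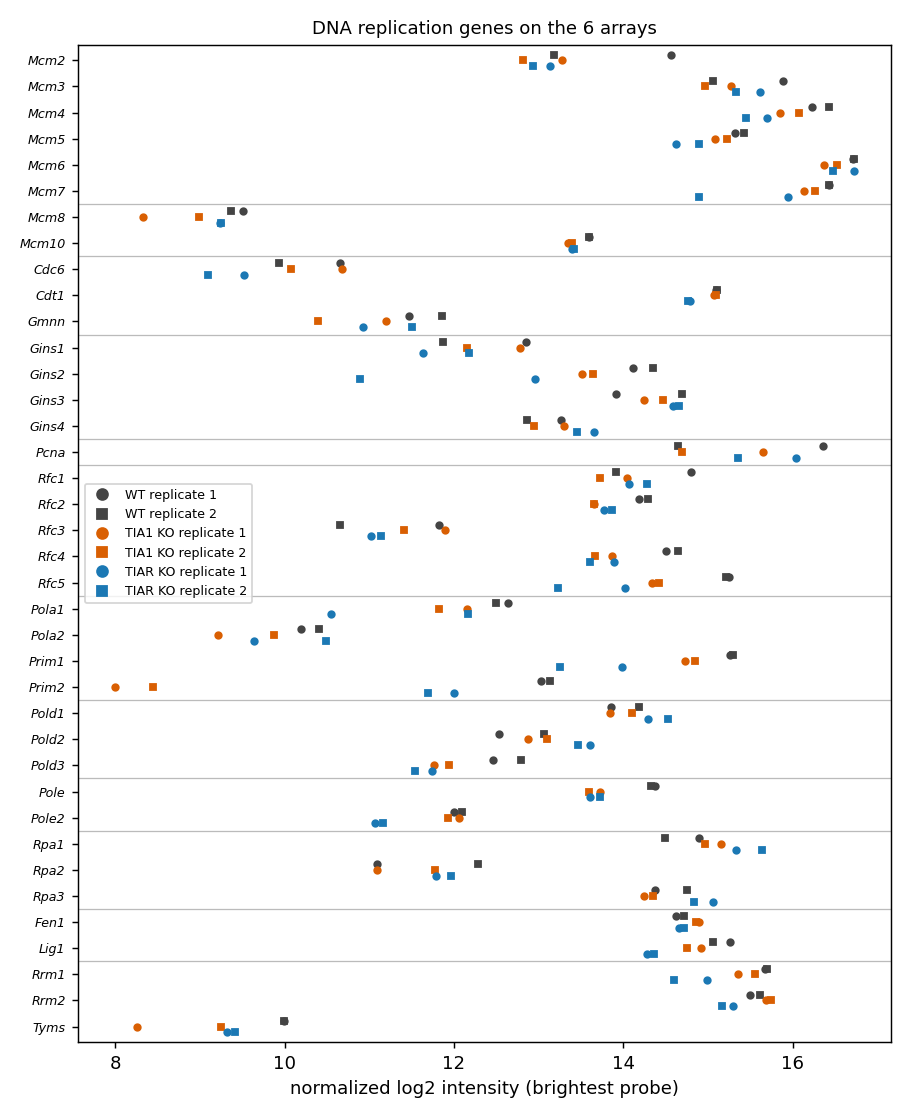
Normalized log2 intensity (x axis) of the brightest probe of each of the 38 replication genes (rows, with lines between functional groups) on the 6 arrays, circles for replicate 1 and squares for replicate 2. Prim2 in TIA1 KO, at 8.00 and 8.45, is the gene farthest from its WT values of 13.03 and 13.13.

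The labels were checked on the deleted genes and on fibroblast markers. The brightest Tia1 probe read 10.72 and 8.54 in WT, 7.87 and 8.44 in TIA1 KO, and 9.56 and 9.58 in TIAR KO, and its difference between TIA1 KO and WT was not called (log2 fold change -1.47 ± 0.79 SE, limma adjusted p = 0.288). A second Tia1 probe gave -1.62 ± 0.42 (adjusted p = 0.116), and the third, not well above background in WT, gave 0.87 ± 0.28 (adjusted p = 0.149). The brightest Tial1 probe read 13.22 on the WT array where its spot passed the flags, 14.07 and 13.69 in TIA1 KO, and 9.57 and 11.60 in TIAR KO (adjusted p = 0.200 against WT), while a second probe was called lower in TIAR KO (-1.58 ± 0.26, adjusted p = 0.0254). Whether these probes lie inside the deleted parts is not given in the sources used here. The brightest Gapdh probe differed by -0.04 and 0.09 in TIA1 KO and TIAR KO against WT, with neither difference called. With arrays scaled to a common median it differed by -1.41 and -0.15. That probe is placed on chr7, whereas most other Gapdh probes are placed on chr6. With the mean of all Gapdh probes the difference in TIA1 KO was -0.17 ± 0.14 (SE), not called. Of 8 fibroblast markers, 6 and 7 were well above background on the WT arrays, 7 on each TIA1 KO array and 8 on each TIAR KO array. Their summed linear intensity was 321654 and 303523 in WT, 1083202 and 1042535 in TIA1 KO, and 1040941 and 1025754 in TIAR KO. Fibroblast markers were called higher than WT in 6 of 8 cases in TIA1 KO (Col1a1, Col1a2, Col3a1, Fn1, Pdgfrb and Pdgfra) and 7 of 8 in TIAR KO (these and Thy1). Pdgfra was not well above background on either WT array and Thy1 on only 1 of them. Of 22 markers of other cell types, Tyrobp, Krt8 and Krt19 were called higher in TIA1 KO, and Cdh1, Krt8, Krt18 and Des in TIAR KO, with none lower. Their part in the replication results below was not tested.

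Against WT, few replication genes passed the threshold of the study, an adjusted p under 0.05 with a fold change above 2 (called, below), and each one that did was lower in the knockout. In TIA1 KO 1 of 38 genes was called lower, Prim2, and 0 were called higher, against 3.54% of all probes called in that comparison (1.36% lower and 2.18% higher). In TIAR KO 3 of 38 were called lower, Prim1, Prim2 and Rfc5, and 0 higher, against 5.76% of all probes (2.37% lower and 3.39% higher). Among the 13729 probes that were well above background on all 6 arrays, 6.96% were called in TIA1 KO (2.21% lower) and 11.1% in TIAR KO (4.74% lower). Prim1 and Prim2 are the subunits of primase, which makes the RNA primers, and Rfc5 is a subunit of the clamp loader. At an unadjusted p under 0.05, 12 of the 38 genes passed in TIA1 KO and 18 in TIAR KO, against 27.8% and 20.2% of all probes. By the adjusted p alone, without the fold threshold, 7 genes passed in TIAR KO, all lower (Lig1, Pold3, Pole2 and Rrm1 besides the 3 called), against 7.79% of all probes (3.44% lower and 4.35% higher). Both comparisons use the same pair of WT arrays.

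Most of the other fold changes were small and below 0. The median log2 fold change over the 38 genes was -0.30 in TIA1 KO beside -0.09 over all probes, and -0.43 in TIAR KO beside -0.02 over all probes. Over those 13729 detected probes the medians were -0.04 and -0.04. The fold change was below 0 for 29 of 38 genes in each comparison, against 53.6% and 52.9% of the detected probes. Both knockout values lay below both WT values for 22 genes in TIA1 KO and above them for 3, against 39.2% and 26.0% of all probes (65.2% together), and below for 22 genes and above for 5 in TIAR KO, against 27.0% and 21.9% (49.0% together). Over the 13729 detected probes the shares below and above were 35.7% and 29.4% in TIA1 KO and 33.6% and 29.9% in TIAR KO. The log2 fold change stayed within 1 unit either way for 36 genes in TIA1 KO and 32 in TIAR KO. For 19 and 13 genes, respectively, the whole 95% confidence interval of the log2 fold change lay within that range, so that for these a change above 2-fold was outside the interval, while for the remaining genes it was not. The intensities are relative to the whole array and do not give an amount of transcript per cell. In cell populations, a smaller share of cells in S phase and less transcript relative to the other RNA of each cell cannot be told apart. The paper reports larger knockout cells and, without synchronization, a modestly lower share in S phase. The part of either in these values was not tested. With each array scaled only to a common median, 36 genes were called lower in TIA1 KO and 11 in TIAR KO, against 25.0% and 4.88% of all probes called lower, and under that scaling all probes shifted by -0.67 and -0.02.

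**Figure D2:**
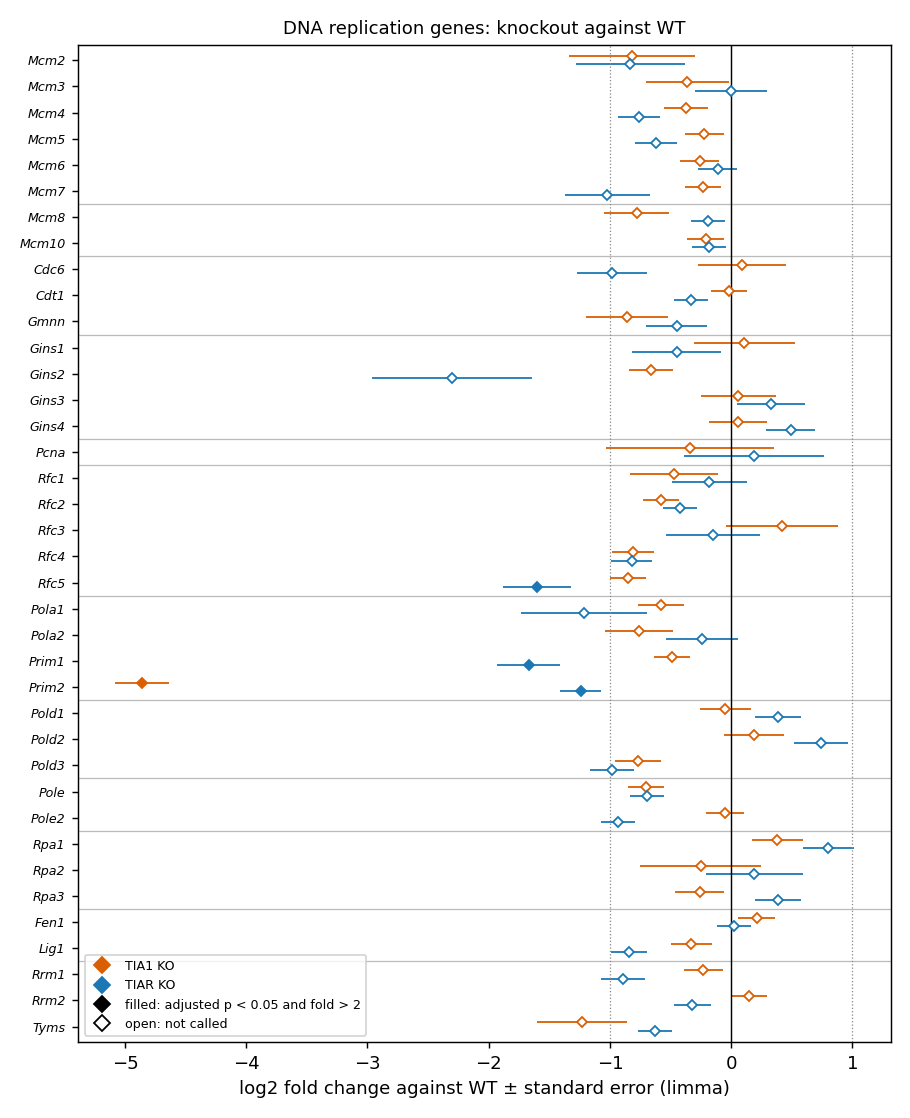
Log2 fold change against WT (x axis, ± SE from limma, 2 arrays a group) of the 38 replication genes in TIA1 KO (orange) and TIAR KO (blue), with dotted lines at 2-fold. Filled symbols passed the adjusted p and the fold threshold: Prim2 at -4.86 in TIA1 KO, and Prim1 at -1.67, Rfc5 at -1.60 and Prim2 at -1.24 in TIAR KO.

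Polymerase alpha-primase starts every new strand, and its 4 subunit genes gave the lowest group medians, -0.67 in TIA1 KO and -1.22 in TIAR KO. Prim2, the large primase subunit that carries an iron-sulphur cluster, read 13.03 and 13.13 in WT, 8.00 and 8.45 in TIA1 KO, and 12.00 and 11.69 in TIAR KO. The groups did not overlap, and in TIA1 KO the probe was well above background on only 1 of 2 arrays. Prim2 fell by 4.86 ± 0.22 (SE) on the log2 scale in TIA1 KO, 29.0-fold (limma adjusted p = 0.00547), and by 1.24 ± 0.17 in TIAR KO, 2.36-fold (adjusted p = 0.0143). With the mean of its probes Prim2 gave -2.98 in TIA1 KO, still called, and -0.81 in TIAR KO, not called. The probe lies at chr1:33510733-33510792 (mm9, minus strand) and represents the RefSeq transcript of the gene. A second Prim2 probe, at chr1:33535912-33535971 and named for a cDNA clone, was dim: it read 8.39 and 7.98 in WT, 6.84 and 7.34 in TIA1 KO, and 7.83 and 7.78 in TIAR KO. It was not well above background on either TIA1 KO array, where its level was at least 1.41-fold lower than in WT (adjusted p = 0.108 for the measured difference of -1.09). A bound of this kind sets the mean of the bright group against the lowest intensity rated well above background on each dim array, or the probe's own reading if higher.

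Prim1, the small catalytic primase subunit, read 15.26 and 15.30 in WT, 14.73 and 14.85 in TIA1 KO, and 13.98 and 13.25 in TIAR KO. Both knockouts lay below WT without overlap, and TIAR KO lay lowest. The difference in TIAR KO was -1.67 ± 0.26 (adjusted p = 0.0223), a 3.18-fold lower intensity, and in TIA1 KO it was -0.49 ± 0.15 (adjusted p = 0.143, 95% interval -0.91 to -0.08). Pola1, the catalytic polymerase subunit, read 12.64 and 12.50 in WT, 12.15 and 11.82 in TIA1 KO, and 10.55 and 12.17 in TIAR KO, where the replicates differed too widely for a call (-1.21 ± 0.52). Pola2, the accessory subunit, gave -0.76 ± 0.28 and -0.24 ± 0.30, and neither was called.

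The call of Prim2 in TIA1 KO rested on having both WT arrays. Without WT replicate 1 or WT replicate 2 its fold change was -4.91 and -4.81, with adjusted p = 0.236 and 0.237, and 0 of all 55681 probes were called in either fit, although 7202 and 7415 passed an unadjusted p under 0.05. Without TIA1 KO replicate 2, 4 genes were called lower there, Mcm8, Pola2, Prim2 and Tyms, as 10735 of all probes were called, and without TIA1 KO replicate 1 only Prim2. In TIAR KO the calls of Prim1, Prim2 and Rfc5 were all lost without either WT array, and Mcm2 was called without WT replicate 2. Without TIAR KO replicate 1 the called genes were Gins2, Mcm7, Prim1, Prim2 and Rfc5, and without TIAR KO replicate 2 they were Pola1 and Prim1. Unlike TIA1 KO without a WT array, each of these TIAR KO fits still called probes elsewhere on the array. Prim1 kept a fold change between -2.03 and -1.30 across these 4 fits, Rfc5 between -2.0 and -1.21, and Prim2 between -1.39 and -1.09.

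The sequences of the probes behind these calls are given as the first 30 of their 60 bases, 5′ to 3′ and in the sense of the transcript, since the reading of each gene rests on this single stretch.
Prim1 probe, chr10:127466952-127467011 (mm9, plus strand): ctttcgagaagtaatttatgtcaaggagac
Prim2 probe, chr1:33510733-33510792 (mm9, minus strand): ggaaaggaagcattcctattgaaactgtta
Rfc5 probe, chr5:117829243-117829302 (mm9, minus strand): ataggaaagaaactacaacagtttgccttc

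**Figure D3:**
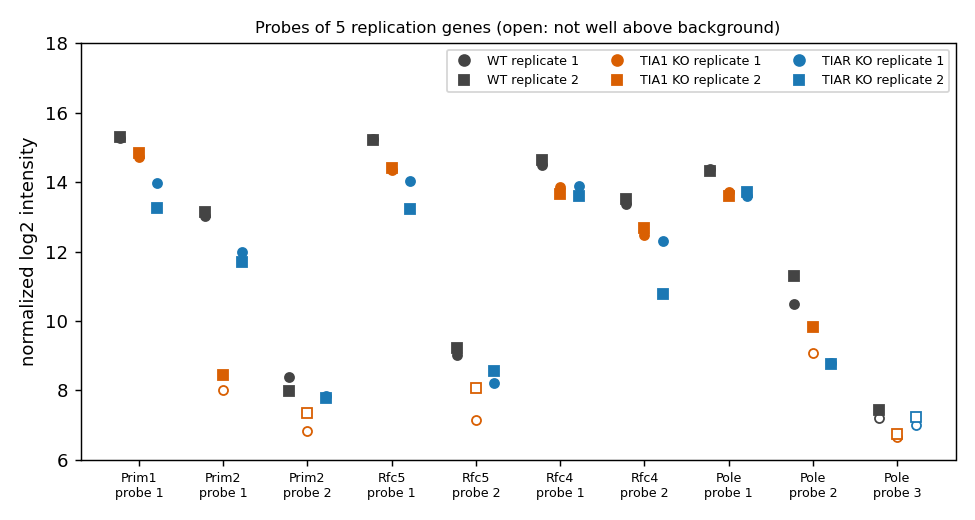
Normalized log2 intensity (y axis) of every probe of Prim1, Prim2, Rfc5, Rfc4 and Pole on the 6 arrays, with open symbols where the spot was not well above background. The brightest Prim2 probe drops to 8.00 and 8.45 in TIA1 KO, and the second probes of Rfc4 and Pole are lowest in TIAR KO.

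The clamp loader opens PCNA and places it at primer ends. Rfc5 read 15.25 and 15.21 in WT, 14.34 and 14.42 in TIA1 KO, and 14.02 and 13.23 in TIAR KO, so that both knockouts lay below WT. It fell by 1.60 ± 0.28 in TIAR KO, 3.04-fold (adjusted p = 0.0305), and the difference in TIA1 KO was -0.85 ± 0.15 (adjusted p = 0.0717). A dimmer Rfc5 probe, for another transcript of the gene, gave -1.50 in TIA1 KO, where it was at least 2.10-fold lower and not well above background on either array, and -0.74 in TIAR KO, with neither called. Rfc4 read 14.50 and 14.65 in WT against 13.87 and 13.67 in TIA1 KO and 13.89 and 13.61 in TIAR KO (-0.81 ± 0.17 and -0.82 ± 0.17, adjusted p = 0.0903 and 0.0502). Its second probe gave -0.87 and -1.91, again not called. Rfc2 lay below WT in both knockouts (-0.58 and -0.42, not called), while Rfc1, the large subunit, and Rfc3 overlapped with WT. Rfc3 had the highest fold change of all 38 genes in TIA1 KO, 0.42 ± 0.46. The clamp itself, Pcna, read 16.36 and 14.65 in WT, which was the widest gap between replicates of any of the 38 genes in WT, 1.71, so that its differences of -0.34 ± 0.69 and 0.19 ± 0.58 say little.

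None of the 6 genes Mcm2 to Mcm7 was called in either comparison. Their median log2 fold change was -0.31 in TIA1 KO and -0.69 in TIAR KO, with 4 of the 6 below both WT arrays in each. The shares below both WT arrays were 39.2% and 27.0% over all probes, and 35.7% and 33.6% over the 13729 detected probes. Mcm7 read 16.43 and 16.43 in WT, 16.14 and 16.26 in TIA1 KO, and 15.94 and 14.89 in TIAR KO. Both TIAR KO arrays lay below the others, but they differed from each other by about as much as from WT (-1.02 ± 0.35, adjusted p = 0.187). Mcm4 gave -0.76 ± 0.17 in TIAR KO (adjusted p = 0.0637) and Mcm5 -0.62 ± 0.17 (adjusted p = 0.104), whereas Mcm6 read 16.71 and 16.72 in WT and 16.72 and 16.48 in TIAR KO. Mcm2 read 14.56 and 13.18 in WT and Mcm3 15.89 and 15.06, and with such gaps between the WT arrays the intervals were wide (Mcm2, -0.82 ± 0.52 in TIA1 KO and -0.83 ± 0.45 in TIAR KO). Mcm10, which helps to activate the helicase, differed by -0.21 and -0.18, with 95% intervals of -0.61 to 0.19 and -0.53 to 0.17. Mcm8, a relative of the ring subunits with a part in recombination, read 9.51 and 9.37 in WT, and its probes disagreed in sign in TIA1 KO, at -0.78 and 0.31, where each was well above background on 1 of 2 arrays only.

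Of the loading factors, Cdt1 differed least in TIA1 KO, where it read 15.07 and 15.09 against 15.10 and 15.11 in WT. In TIAR KO it read 14.79 and 14.76, below both other groups (-0.33 ± 0.14, adjusted p = 0.273). Cdc6 read 10.66 and 9.93 in WT, 10.68 and 10.08 in TIA1 KO, and 9.52 and 9.10 in TIAR KO. Its TIAR KO values lay below all others without a call (-0.98 ± 0.29, adjusted p = 0.135), and its dimmer probe gave -0.80 ± 0.14 there (adjusted p = 0.0307, below the fold threshold). Cdc6 probes disagreed in sign in TIA1 KO, at 0.09 and -0.26. Gmnn, which restrains Cdt1, gave -0.86 ± 0.34 and -0.45 ± 0.25, neither called.

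None of the genes of GINS, the complex that joins Cdc45 to the ring, was called. Gins2 read 14.11 and 14.35 in WT, 13.51 and 13.64 in TIA1 KO, and 12.96 and 10.89 in TIAR KO. Its fold change in TIAR KO was the lowest of the 38 genes, -2.30 ± 0.66, but the TIAR KO replicates lay 2.07 apart, the widest gap of any of the 38 genes, and the adjusted p was 0.120. Without TIAR KO replicate 1 it was among the genes called. Gins4 read 13.27 and 12.86 in WT and 13.66 and 13.45 in TIAR KO, higher on both arrays (0.49 ± 0.20, adjusted p = 0.256), and Gins1 and Gins3 overlapped with WT in both knockouts.

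Of polymerase delta, the catalytic Pold1 and the accessory Pold2 were higher than WT on both TIAR KO arrays (0.39 ± 0.19 and 0.74 ± 0.22, adjusted p = 0.344 and 0.127), although Pold1 turned to -0.06 with arrays scaled to a common median and -0.12 with the processed signal. The third subunit, Pold3, read 12.46 and 12.79 in WT, 11.77 and 11.94 in TIA1 KO, and 11.74 and 11.54 in TIAR KO. Pold3 lay below WT in both knockouts, at -0.98 ± 0.18 in TIAR KO (adjusted p = 0.0366, just short of the fold threshold) and -0.77 ± 0.19 in TIA1 KO (adjusted p = 0.113). Of polymerase epsilon, the leading-strand enzyme, the accessory Pole2 read 12.00 and 12.10 in WT, 12.06 and 11.93 in TIA1 KO, and 11.07 and 11.16 in TIAR KO. Pole2 passed the adjusted p in TIAR KO without reaching the fold threshold (-0.93 ± 0.14, adjusted p = 0.0212), and in TIA1 KO its difference was -0.05 with a 95% interval of -0.48 to 0.37. The catalytic Pole was lower than WT on all 4 knockout arrays (-0.70 and -0.69, adjusted p = 0.0956 and 0.0516). A second Pole probe read 10.48 and 11.29 in WT and 8.80 and 8.77 in TIAR KO and was called there (-2.10 ± 0.28, adjusted p = 0.0141), so that the call for this gene depended on the probe.

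The 3 RPA genes each had a positive fold change in TIAR KO, with none called, and with arrays scaled to a common median Rpa2 and Rpa3 turned to -0.23 and -0.08, with the processed signal Rpa2 turned to -0.30, and without WT replicate 1 it was -0.41. Rpa1, the large DNA-binding subunit, read 14.89 and 14.49 in WT, 15.16 and 14.97 in TIA1 KO, and 15.33 and 15.64 in TIAR KO. Rpa1 had the highest fold change of the 38 genes in TIAR KO (0.80 ± 0.21, adjusted p = 0.0954), and both knockouts lay above WT without overlap, a direction that turned in TIA1 KO when arrays were scaled to a common median (-1.22). A second Rpa1 probe gave 0.09 in TIA1 KO, where it overlapped with WT, and 0.37 in TIAR KO. Rpa3, the small subunit, lay above WT on both TIAR KO arrays and below it on both TIA1 KO arrays, and Rpa2 overlapped with WT in both.

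Of the enzymes that finish Okazaki fragments, the flap nuclease Fen1 read 14.62 and 14.72 in WT and 14.66 and 14.72 in TIAR KO, a difference of 0.02 with a 95% interval of -0.34 to 0.37. DNA ligase I, Lig1, read 15.26 and 15.06 in WT, 14.92 and 14.75 in TIA1 KO, and 14.28 and 14.36 in TIAR KO. Its decrease in TIAR KO passed the adjusted p but was under 2-fold (-0.84 ± 0.15, adjusted p = 0.0355). Among the genes for precursor supply, Rrm1, the large subunit of ribonucleotide reductase, showed the same in TIAR KO, with 15.67 and 15.70 in WT against 14.99 and 14.60 (-0.89 ± 0.18, adjusted p = 0.0499). Rrm2, the small subunit whose level limits the enzyme, gave 0.15 in TIA1 KO and -0.32 in TIAR KO, neither called, and its sign in TIA1 KO turned when arrays were scaled to a common median (-1.41). Tyms, which makes thymidylate, read 9.99 and 9.99 in WT, 8.26 and 9.25 in TIA1 KO, where 1 array was not well above background, and 9.32 and 9.41 in TIAR KO (-1.23 ± 0.37 and -0.63 ± 0.14, adjusted p = 0.138 and 0.0642).

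In the direct comparison of TIAR KO with TIA1 KO cells, 1 of the 38 genes was called. Prim2 was higher in TIAR KO by 3.62 ± 0.24 on the log2 scale (12.3-fold, adjusted p = 0.0116), with 1 of 2 TIA1 KO arrays well above background, and 0 genes were called lower, against 3.35% of all probes called (1.72% higher and 1.63% lower). The median over the 38 genes was 0.00 beside 0.05 over all probes. The fold change was within 1 unit for 34 genes, and for 19 the whole 95% interval lay within that range. At an unadjusted limma p under 0.05, 9 genes passed, against 22.6% of all probes. Both TIAR KO values lay above both TIA1 KO values for 13 genes and below them for 15. The shares above and below were 34.9% and 25.0% over all probes, and 34.6% and 32.2% over the 13729 detected probes. The call of Prim2 was lost without either TIAR KO array (adjusted p = 0.251 and 0.228, at fold changes of 3.47 and 3.77), when 0 of all probes were called and 6318 and 6402 passed an unadjusted p under 0.05. Prim1 gave -1.17 ± 0.29 and Pole2 -0.88 ± 0.16, with adjusted p = 0.131 and 0.0767. Gins2 had the lowest value, -1.65 ± 0.72 (adjusted p = 0.273). The 3 RPA genes were each higher in TIAR KO than in TIA1 KO on both arrays (0.42, 0.44 and 0.65), against 34.9% of all probes with both TIAR KO values above both TIA1 KO values (25.0% below and 59.9% together), and none was called.

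Outside these 38 genes, 57 further genes of replication were examined: origin recognition, firing kinases and factors, fork protection, small polymerase subunits, alternative clamp loaders, RNase H2, topoisomerases, histone chaperones, maintenance methylation, precursor supply and turnover of loading factors. Of these, 2 were called lower and 0 higher in TIA1 KO, and 4 lower and 0 higher in TIAR KO, against 3.54% and 5.76% of all probes called, and the medians were -0.38 and -0.37 beside -0.09 and -0.02 over all probes. All of these calls were lower, against 1.36% and 2.37% of all probes called lower. Among the 13729 detected probes the shares called lower were 2.21% and 4.74%. The values ran from -1.67 to 0.63 in TIA1 KO and from -1.42 to 0.97 in TIAR KO.

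Dna2, the nuclease-helicase that trims long flaps, read 11.09 and 10.99 in WT, 9.30 and 9.44 in TIA1 KO, and 9.90 and 9.70 in TIAR KO. It was called lower in both (-1.67 ± 0.16 and -1.24 ± 0.15, adjusted p = 0.0226 and 0.0105), while a second Dna2 probe was not well above background on any array. With the mean of both probes Dna2 gave -0.68 and -0.75, neither called, and in TIA1 KO the call was also lost without loess (adjusted p = 0.0835) and in the log2 table of the authors (0.0905), among the 8 of 18 fits that did not call it. Donson, a replisome component, read 12.00 and 12.21 in WT and 10.81 and 10.66 in TIA1 KO (-1.37 ± 0.17, adjusted p = 0.0391). In TIAR KO the other genes called lower were Dnmt1, the maintenance DNA methyltransferase, Orc1, the largest subunit of the origin recognition complex, and Clspn, which encodes the checkpoint mediator claspin. Dnmt1 read 13.27 and 13.22 in WT, 12.71 and 12.76 in TIA1 KO, and 11.83 and 11.91 in TIAR KO, with replicates within 0.1 log2 units of each other and no overlap between groups (-1.38 ± 0.14 in TIAR KO, adjusted p = 0.00541). Orc1 gave -1.17 ± 0.21 (adjusted p = 0.0311) and Clspn -1.13 ± 0.15 (adjusted p = 0.0121). In the direct comparison of the knockouts 0 of these 57 genes were called, with 14 at an unadjusted p under 0.05, against 22.6% of all probes, and values from -1.53 to 1.34. In TIA1 KO the calls of Dna2 and Donson were lost without either WT array, and in TIAR KO only Dnmt1 was called in each of the fits without 1 array, while without WT replicate 1 it was the only one of the 57. Dna2 was lost there and without TIAR KO replicate 2, Orc1 without either WT array and without TIAR KO replicate 1, and Clspn in each of these fits but that without WT replicate 2. Without TIA1 KO replicate 2, Cdc45, Cdc7, Clspn and Pole4 were called lower in TIA1 KO besides Dna2 and Donson. In that fit calls rose over the whole array.

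Among 13 regulators of S phase entry, 1 was called lower and 0 higher in TIA1 KO. In TIAR KO 2 were called lower and 1 higher. The shares of all probes called were 3.54% and 5.76%. All the regulators called belong to the E2F family, as do most of the 13. E2f2, a transcriptional activator, read 12.81 and 12.64 in WT, 11.26 and 10.98 in TIA1 KO, and 10.31 and 10.00 in TIAR KO. The 3 groups did not overlap, and E2f2 fell by 1.60 ± 0.18 in TIA1 KO (adjusted p = 0.0332) and by 2.57 ± 0.18 in TIAR KO (adjusted p = 0.00152). E2f8, an atypical E2F that represses, read 12.39 and 12.38 in WT, 12.47 and 12.63 in TIA1 KO, and 11.11 and 11.23 in TIAR KO. It was lower in TIAR KO than in WT (-1.22 ± 0.14, adjusted p = 0.00885) and than in TIA1 KO (-1.38 ± 0.16, adjusted p = 0.0359). E2f6, a repressor of the family, was called higher in TIAR KO, with 12.54 and 12.17 against 10.71 and 11.30 in WT (1.35 ± 0.25, adjusted p = 0.0385). E2f2 in TIAR KO was called in all 18 fits, from -2.94 to -2.41. In TIA1 KO it was called in 12 of 18 fits, and the call was lost without either WT array (adjusted p = 0.336 and 0.314), in the log2 table of the authors (0.055) and with the processed signal (0.075), among others. E2f8 in TIAR KO missed the threshold only without TIAR KO replicate 1 among the fits without 1 array (adjusted p = 0.0527), and among these fits E2f6 passed only without WT replicate 2 (adjusted p = 0.0316). The difference of E2f8 between the knockouts was -1.32 and -1.45 without either TIAR KO array and not called there (adjusted p = 0.316 and 0.314). The remaining regulators were not called, including E2f1, cyclins E and A, Cdk2 and Cdc25a. E2f1 read 13.34 and 13.56 in WT, 13.37 and 13.23 in TIA1 KO, and 12.32 and 11.26 in TIAR KO, below WT without overlap. The regulators' values against WT ran from -1.60 to 0.99 in TIA1 KO and from -2.57 to 1.89 in TIAR KO. The highest, Ccne2 (cyclin E2), read 6.74 and 6.56 in WT and 10.24 and 6.84 in TIAR KO, and its probe was well above background on 1 of the 6 arrays only.

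**Figure D4:**
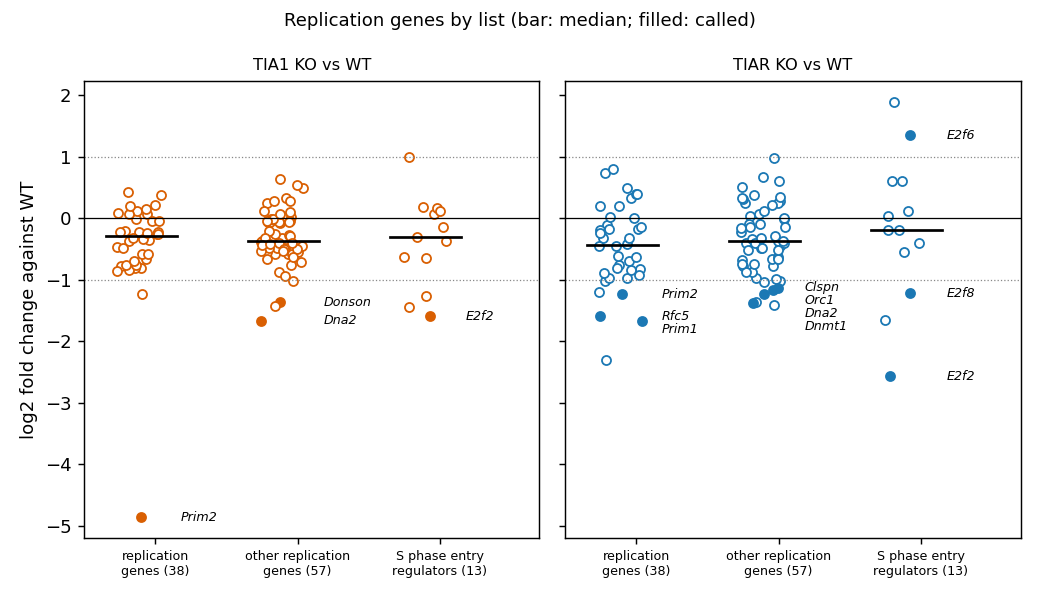
Log2 fold change against WT (y axis) of the 38 replication genes, 57 other replication genes and 13 regulators of S phase entry, one point a gene, for TIA1 KO (left) and TIAR KO (right), with bars at the medians. Genes called are filled and named: besides the primase genes and Rfc5 they are Dna2 and Donson, then Clspn, Orc1, Dna2 and Dnmt1, and among regulators E2f2, E2f8 and, as the only one higher than WT, E2f6.

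Promoter sequences of these genes were read from RefSeq (GRCm38.p6), each covering 250 bases before to 50 bases after the annotated start; 30 of the 38 genes matched by symbol, with 35 promoters. The letters searched were the 8-base E2F site variants TTTCCCGC, TTTCGCGC, TTTGCCGC and TTTGGCGC on both strands. At least 1 of them was found in 14 of 30 genes (46.7%), against 2.60% of the 27025 genes in the table. The letters CCAAT, of the NF-Y box, were found on either strand in 19 of 30 genes (63.3%), against 41.1% of all genes. A match is a description of the letters and not of a bound site. The 4 promoters shown have the E2F letters in capitals: Mcm5 and Mcm6, which hold the letters and were not called, and Prim1 and Rfc5, which were called lower in TIAR KO and do not hold these letters within this window. Lig1, Pold3 and Pole2 hold the letters too and passed the adjusted p in TIAR KO, and Rrm1 passed it without the letters in this window. The 4 shown therefore do not stand for a relation between letters and change. Prim2 was not among the 30 genes matched. In Mcm5 and in Mcm6 variants on opposite strands overlap, so that they appear as 1 longer run of capitals, and Mcm6 holds a further match downstream.
Mcm5, chr8:75109259-75109558 (plus strand): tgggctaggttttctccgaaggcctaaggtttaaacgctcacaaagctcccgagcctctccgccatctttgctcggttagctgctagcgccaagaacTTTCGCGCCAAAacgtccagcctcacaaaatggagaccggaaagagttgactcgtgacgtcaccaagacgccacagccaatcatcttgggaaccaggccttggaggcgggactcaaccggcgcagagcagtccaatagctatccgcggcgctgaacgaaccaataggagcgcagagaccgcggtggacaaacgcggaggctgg
Mcm6, chr1:128359656-128359955 (minus strand): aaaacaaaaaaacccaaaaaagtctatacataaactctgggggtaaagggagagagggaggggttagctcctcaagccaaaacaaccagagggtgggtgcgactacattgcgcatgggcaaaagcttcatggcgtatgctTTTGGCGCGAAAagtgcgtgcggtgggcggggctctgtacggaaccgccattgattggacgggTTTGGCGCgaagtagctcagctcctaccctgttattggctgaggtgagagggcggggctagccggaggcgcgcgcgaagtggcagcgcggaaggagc
Prim1, chr10:128014965-128015264 (plus strand): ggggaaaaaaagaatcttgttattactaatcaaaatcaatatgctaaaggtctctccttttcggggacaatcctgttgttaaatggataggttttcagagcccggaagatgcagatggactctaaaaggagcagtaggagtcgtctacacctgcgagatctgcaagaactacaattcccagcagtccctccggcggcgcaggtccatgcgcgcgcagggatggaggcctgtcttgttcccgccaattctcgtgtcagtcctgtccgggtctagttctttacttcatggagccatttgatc
Rfc5, chr5:117388974-117389273 (minus strand): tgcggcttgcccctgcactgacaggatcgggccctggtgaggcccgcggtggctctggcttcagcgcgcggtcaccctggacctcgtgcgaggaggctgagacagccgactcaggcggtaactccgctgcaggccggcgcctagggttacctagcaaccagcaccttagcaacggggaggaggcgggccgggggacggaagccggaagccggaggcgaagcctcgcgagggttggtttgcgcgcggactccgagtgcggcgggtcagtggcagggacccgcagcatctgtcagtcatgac

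The shift of the 38 genes relative to all probes depended on how the arrays were scaled. Against WT, their median minus that of all probes was -0.21 in TIA1 KO and -0.41 in TIAR KO as reported. With arrays scaled to a common median these differences were -1.16 and -0.83, and all probes themselves shifted by -0.67 in TIA1 KO. With arrays scaled to the median of the probes detected on all arrays, the differences were also -1.16 and -0.83, since all probes shifted by 0.88 and 0.43, while the median of the 38 genes itself was -0.28 and -0.40, and 1 and 3 genes were called lower. With the processed signal the differences were -2.46 and -0.59, and with only probes well above background -0.04 and -0.38, where all probes of TIA1 KO lay at -0.26. Prim2 in TIA1 KO gave -5.48 from the scanner's processed signal, where 0 probes were called at all (adjusted p = 0.0529), and between -5.98 and -2.98 under every setting tried.

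**Figure D5:**
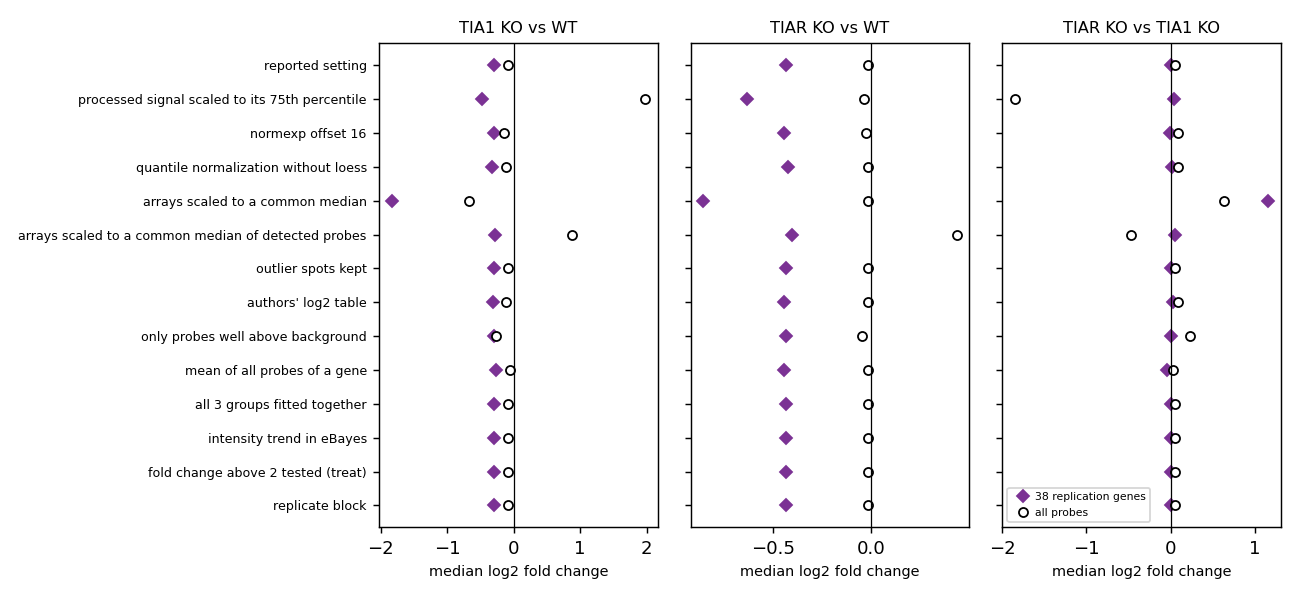
Median log2 fold change (x axis) of the 38 replication genes (filled diamonds) and of all probes (open circles) in the 3 comparisons under each processing setting (rows). Against WT the median of the replication genes stays below 0 in every row, at -1.83 to -0.26 in TIA1 KO and -0.85 to -0.40 in TIAR KO, while the median of all probes runs from -0.67 to 1.98 in TIA1 KO.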

How the data were processed

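For each of the 6 arrays the authors deposited the scanner output, with mean spot intensity, median local background, processed intensity and quality flags per spot on a linear scale and not normalized between arrays, and a table of normalized log2 values per spot, which the authors made with limma by normexp, loess and quantile normalization and which was used here as an alternative. The intensities were corrected with normexp (offset 50), log2-transformed, normalized by 1 pass of loess and by quantiles over all spots, following the methods of the study; control spots and outlier spots were then left out and spots of a probe averaged. Detection needs at least 50% of a probe's spots well above background. Each comparison was fitted across all 55681 probes on its own 4 arrays with limma 3.58.1 (R 4.3.3), with Benjamini-Hochberg adjustment over all probes, and called at adjusted p under 0.05 and fold above 2. Array data carry no read depth, and 2 arrays a group limit the precision. The fits were also run on simulated log2 values with planted changes larger than most measured here. That run tests neither smaller changes nor the normalization.

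All 38 genes are named, each by its brightest probe over the 6 arrays; of the 57 other replication genes and the 13 regulators, every gene called in a comparison is named. The members and lists were chosen with earlier results of these data known. Probe positions are those of the deposited files (mm9). Of the 57 other genes, Ticrr and Supt16 were named through their RefSeq accessions. The alternatives were other scalings and background settings, the table of the authors, probe filters and averages, 3 groups fitted together, an intensity trend, a test against 2-fold, a replicate block, and leaving out each array. No test over a set of genes was made.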

Additional observations from a re-analysis of the deposited data

Results flagged for a closer look

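The 2 knockouts differed from each other, by the direct limma test with adjusted p under 0.05 and fold above 2, in 1 of the 38 replication genes, in 1 regulator of S phase entry and in 7 of 30 cell type markers, against 3.35% of all probes called (1.72% higher and 1.63% lower). Without either TIAR KO array, and with the replicate number as a block, 0 of all probes were called, so each difference given here lost its call in those 3 fits (6318, 6402 and 10675 probes passed an unadjusted p under 0.05). Prim2 was higher in TIAR KO than in TIA1 KO by 3.62 on the log2 scale (adjusted p = 0.0116), and E2f8 was lower (-1.38, adjusted p = 0.0359), a difference that was -0.26 and not called with arrays scaled to a common median. Of the markers measured on all arrays of both knockouts, Cd68 was higher in TIAR KO by 1.48 (adjusted p = 0.0264) and Pdgfra by 1.46 (0.0354). Krt18 was higher by 2.72 (0.0463), with its probe well above background on 1 of 2 TIA1 KO arrays. Thy1, Des and Cdh1 were not well above background on either TIA1 KO array: the measured differences were 7.49, 1.54 and 1.32 (adjusted p = 0.00464, 0.0329 and 0.041), and as bounds they were at least 131-fold, 2.08-fold and 1.68-fold higher in TIAR KO. Tyrobp was not well above background on either TIAR KO array and passed on 1 of 2 TIA1 KO arrays, with a measured difference of -1.61 (adjusted p = 0.0354) and a level at least 2.49-fold lower in TIAR KO. Strain and cell line differ between the knockouts as genotype does, and these cannot be told apart. With 2 samples a group, no sample could be set apart from the others of its group.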

How the results depend on the processing

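Of 204 recomputed counts and medians over 12 results, 160 stayed within 1.5 times the count as reported or within the spread between arrays. With arrays scaled to a common median, the 38 genes had 36 called lower in TIA1 KO and 11 in TIAR KO, and 14 called higher in TIAR KO against TIA1 KO (25.0%, 4.88% and 13% of all probes called so), with medians of -1.83, -0.85 and 1.15, and 50, 15 and 16 of the 57 other replication genes were called. Of the 49 genes recomputed singly, 8 reversed in TIA1 KO under that scaling: Gins1 (-1.44), Gins3 (-1.53), Gins4 (-1.53), Pold2 (-1.40), Rpa1 (-1.22), Fen1 (-1.38), Rrm2 (-1.41) and E2f8 (-1.37). Genes outside those 49, such as Chtf8, Tk1 and Chaf1a, also went from a fold change above 0 to a call lower. The median of the 38 genes moved from -0.30 to -1.83 there and the brightest Gapdh probe from -0.04 to -1.41. These reversals thus follow a shift common to the genes and do not single them out. With the scanner's processed signal scaled to its 75th percentile, 0 of the 38 genes and 0 of the other replication genes were called lower in either knockout. The medians of the 38 genes were -0.48 and -0.63. That setting called 0 of all probes in TIA1 KO, and 1.75% lower and 2.79% higher in TIAR KO. A test against a 2-fold change called Prim2 in TIA1 KO and 0 of the 38 genes in TIAR KO, and 0 other replication genes in either. It called 0.158% and 0.573% of all probes lower.

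The count of other replication genes called in TIA1 KO, 2 as reported, was 1 with normexp offset 16, without loess, in the table of the authors and with the mean of all probes, and 4 with the 3 groups fitted together; between the knockouts it was 1 with probes well above background only and with the 3 groups together. Replicate numbers did not pair the arrays: same-numbered deviations correlated at 0.08, 0.03 and -0.07. With the replicate number as a block, 1 and 3 of the 38 genes were called lower in TIA1 KO and TIAR KO, 0 were called higher between the knockouts (Prim2, adjusted p = 0.0752), and 0 and 4 other replication genes were called against WT.

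Leaving out 1 array left a lone array in a group, and the called genes among the 38 changed with the array left out in every comparison. Other replication genes called ranged from 0 to 6, 1 to 5 and 0 to 2. The medians of the 38 genes ranged from -0.33 to -0.23 in TIA1 KO, -0.63 to -0.36 in TIAR KO and -0.08 to 0.07 between the knockouts. These fits assume that a lone array varies like the other group. Over single genes, 2256 of 2497 recomputed values kept their side of the threshold and either their direction or, without a call on either side, a place within 1 SE, 78 lost a call and 83 gained one; the sign differed in 103 values without a call on either side. Except where named, the cause was not tested.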
